A study of Mus musculus with 18 samples.

Results

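The genes described here are 6 processed pseudogenes of mouse, Rps3a2, Rps3a3, Rps13-ps1, Rplp0-ps1, Gm8730 and Atp6v0c-ps2, with Rps3a1, the parent gene of the Rps3a copies. They are 7 of the 37620 gene IDs in the count files. They were picked by symbol because their read counts had stood far apart between libraries of the series, so their levels are given as a description and carry no test. Tests are given only for genes that were not chosen: the other parents Rps13, Rplp0 and Atp6v0c, further copies of the same parents, and the genes next to the chosen ones on the chromosomes. Reads of a parent can be counted for a copy and the reverse, so tests of parents and further copies are not independent of the choice.

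A processed pseudogene is a copy of a messenger RNA that was reverse transcribed and inserted elsewhere in the genome, usually without introns and without the promoter of its parent. Genes with abundant messenger RNA, among them those of ribosomal proteins, are known to have left many such copies in mammalian genomes. Because a young copy is nearly the same as its parent, short reads of the parent can be counted for the copy and reads of the copy for the parent.

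The series compared mice with an inducible histone H3 in which lysine 9 (K9M) or lysine 36 (K36M) is replaced by methionine with mice labelled wildtype (WT). Such histones are known to inhibit methylation of the same lysine. The mice were C57B6/129 hybrids of both sexes, aged 6 to 8 weeks, and doxycycline at 2 mg/ml in the drinking water served for induction, by a protocol given for all groups alike. The labels used here state neither how long the drug was given, nor what drives the histone, nor which transgene WT mice carried, and they give no strain genotype of single mice. K9M, K36M and WT each had 2 libraries in each of 3 tissues: marrow cells without lineage markers and with cKit, which mark blood stem and progenitor cells, dissociated intestine and dissociated testes. Marrow came from mice 1362 and 1363 (K9M), 1310 and 1312 (K36M) and WT.1262 and WT.1266 (WT). A second set of 6 mice gave both intestine and testes: 1516 and 1519 (K9M), 1485 and 1553 (K36M) and WT.1476 and WT.1477 (WT).

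The copies differ from their parents at few bases, and the stretches printed here, from GENCODE M21 transcripts of GRCm38, show the differences by which a read can be placed. Capitals mark the bases at which a copy and its parent differ. Positions count from 1 at the first base of the start codon of the parent. Rps3a1 encodes a protein of the small ribosomal subunit and lies on chromosome 3, with Rps3a2 on chromosome 14 and Rps3a3 on chromosome 13. Bases 519 to 668 hold the substitution T534C, which both copies share, T668C and A645T of Rps3a2 only and G582T and A660G of Rps3a3 only, among these 2 copies:
Rps3a1: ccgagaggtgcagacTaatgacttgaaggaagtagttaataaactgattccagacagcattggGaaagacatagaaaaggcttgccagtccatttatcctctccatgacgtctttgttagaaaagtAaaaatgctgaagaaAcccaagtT
Rps3a2: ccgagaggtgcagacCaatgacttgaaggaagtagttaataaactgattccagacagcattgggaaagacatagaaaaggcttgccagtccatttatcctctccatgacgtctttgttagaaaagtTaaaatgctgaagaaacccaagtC
Rps3a3: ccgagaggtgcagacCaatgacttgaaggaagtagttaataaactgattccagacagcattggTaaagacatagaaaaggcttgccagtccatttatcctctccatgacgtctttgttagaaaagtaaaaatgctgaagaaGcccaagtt
Rps13, another gene of the small subunit, lies on chromosome 7 and Rps13-ps1 on chromosome 8. Bases 381 to 441 hold both differences of the copy within the coding sequence, T411C and A429G:
Rps13: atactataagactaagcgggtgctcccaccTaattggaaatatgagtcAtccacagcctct
Rps13-ps1: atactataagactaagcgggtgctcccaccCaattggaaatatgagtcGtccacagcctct
Rplp0 encodes the protein at the base of the stalk of the large ribosomal subunit and lies on chromosome 5, with Gm8730 on chromosome 8 and Rplp0-ps1 on chromosome 3. Bases 388 to 507 show A390G and A393G, which both copies share, beside differences that separate them:
Rplp0: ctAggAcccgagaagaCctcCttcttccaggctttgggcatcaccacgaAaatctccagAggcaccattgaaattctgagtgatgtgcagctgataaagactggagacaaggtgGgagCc
Gm8730: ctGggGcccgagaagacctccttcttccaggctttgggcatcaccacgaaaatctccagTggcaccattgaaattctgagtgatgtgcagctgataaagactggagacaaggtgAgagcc
Rplp0-ps1: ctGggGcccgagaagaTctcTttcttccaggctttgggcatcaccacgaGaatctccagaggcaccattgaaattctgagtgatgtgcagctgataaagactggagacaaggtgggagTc
Atp6v0c encodes a subunit of the proton pore of the vacuolar ATPase and lies on chromosome 17, with Atp6v0c-ps2 on chromosome 6. Bases 81 to 141 hold the single difference, T111C:
Atp6v0c: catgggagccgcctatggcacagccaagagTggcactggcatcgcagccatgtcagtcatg
Atp6v0c-ps2: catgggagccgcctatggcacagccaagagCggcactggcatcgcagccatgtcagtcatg

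Over the aligned coding sequence, Atp6v0c-ps2 differed from its parent at 1 of 465 bases, Rps13-ps1 at 2 of 456, Rps3a2 at 4 of 792, Rps3a3 at 9 of 795 and Gm8730 at 12 of 954. Rplp0-ps1 was the most distant, with 40 mismatches in 933 aligned bases and 15 further bases in gaps. A read of 50 bases could therefore be told from all other annotated transcripts over only part of each copy. Windows of 50 bases were compared with annotated transcripts of other genes that resemble the parent's coding sequence, and not with the genome. Those found in none of these transcripts made up 9.83% of Rps3a2, 9.86% of Atp6v0c-ps2 and 12.1% of Rps13-ps1. They made up 26.3% of Gm8730, 34.9% of Rps3a3 and 73.3% of Rplp0-ps1. The read length is not given in the sources used here, and the files hold counts without read sequences, so which allele of a copy a mouse carried was not tested.

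**Figure D1:**
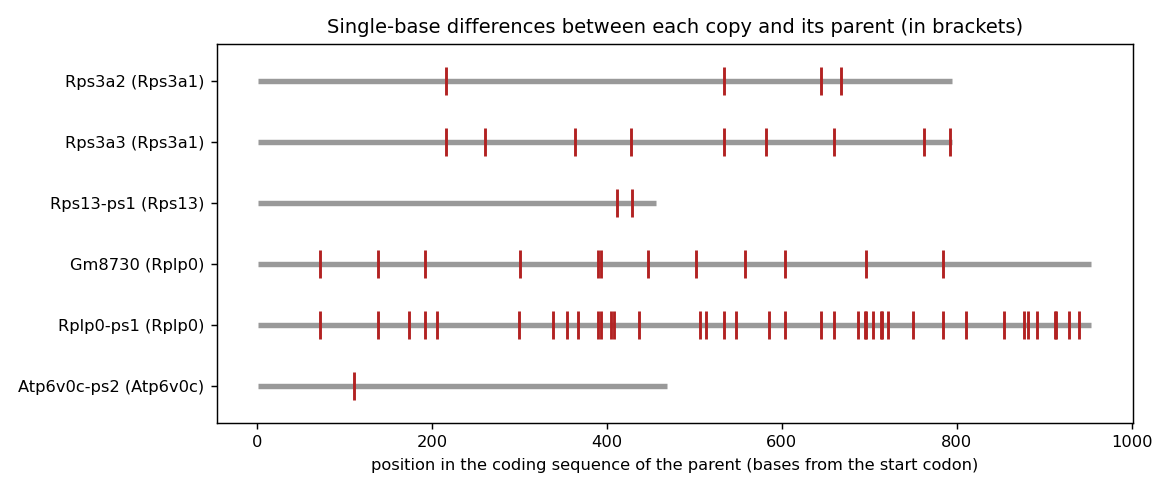
Positions of single-base differences (red ticks) between each of 6 copies and its parent, along the parent's coding sequence in bases from the start codon (grey bars). Atp6v0c-ps2 has 1 difference and Rplp0-ps1 has 40, and Rps3a2 and Rps3a3 share the positions 216 and 534.

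Gene counts ranged from 13396303 to 21417915 per library. Reads without a unique alignment, which the counts leave out, made up 22.2% to 23.7% of all entries in marrow, and in intestine and testes 23.8% to 29.1% and 15.3% to 16.2%. The labelled tissues carried their own markers, with progenitor markers lower in K36M marrow, whose part in the K36M values was not tested. The 4 progenitor markers Kit, Cd34, Ptprc and Myb summed to 2037 and 2059 CPM (reads scaled to the size of the library) in K9M marrow, 1018 and 992 CPM in K36M and 1827 and 1720 CPM in WT. In intestine 4 epithelial markers summed to 5945 and 4939 CPM in K9M, 3770 and 3490 CPM in K36M and 5067 and 5341 CPM in WT. In testes 4 germ cell markers summed to 3486 and 3101 CPM in K9M, 5328 and 7820 CPM in K36M and 3146 and 3310 CPM in WT. The K36M sums lay below the other groups in intestine and above them in testes, and the part of this in the K36M values was not tested. The testes sum is mostly Prm1, which ran from 2238 to 7467 CPM. Only the sum of K36M mouse 1553 is large enough to hold the highest value. The rest of that sum is less than the 608 CPM that Ddx4 reached in another testes library. The testes sums thus do not show that all 4 germ cell markers were higher in K36M. The intestine library of WT.1476 stood apart, with germ cell markers at 49.2 CPM, against 1.33 to 7.99 CPM in the 5 other intestine libraries. Summed levels of 77 ribosomal protein genes other than the parents ranged from 4916 to 11048 CPM in intestine, a wider spread than in marrow (44460 to 49714 CPM) or testes (5875 to 6729 CPM), and the part of this spread in the intestine values below was not tested. Levels are CPM scaled by trimmed means (TMM) within a tissue, and ± is the SD over 2 mice of a group.

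Rps3a3 was abundant in 4 libraries and nearly silent in the other 14. In marrow it stood at 196 and 185 CPM in the K9M mice, at 2.43 and 2.50 CPM in the K36M mice and at 2.91 and 2.67 CPM in the WT mice. The 2 K9M mice were thus both high, at a mean of 191 ± 7.78 CPM, 68.5 times the WT mean. In intestine it was at 17.9 CPM in K9M mouse 1516 and at 0.857 CPM in K9M mouse 1519, against 0.597 and 0.728 CPM in K36M and 0.437 and 0.475 CPM in WT. The testes of the same mice repeated this order, with 12.7 CPM in mouse 1516 and 0.543 CPM in mouse 1519, against 0.480 and 0.370 CPM in K36M and 0.0600 and 0.188 CPM in WT. Both tissues of mouse 1516 were therefore high, and those of mouse 1519, which carries the same label, lay beside K36M and WT. In bulk RNA, fewer cells with a transcript and less of it per cell cannot be told apart.

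**Figure D2:**
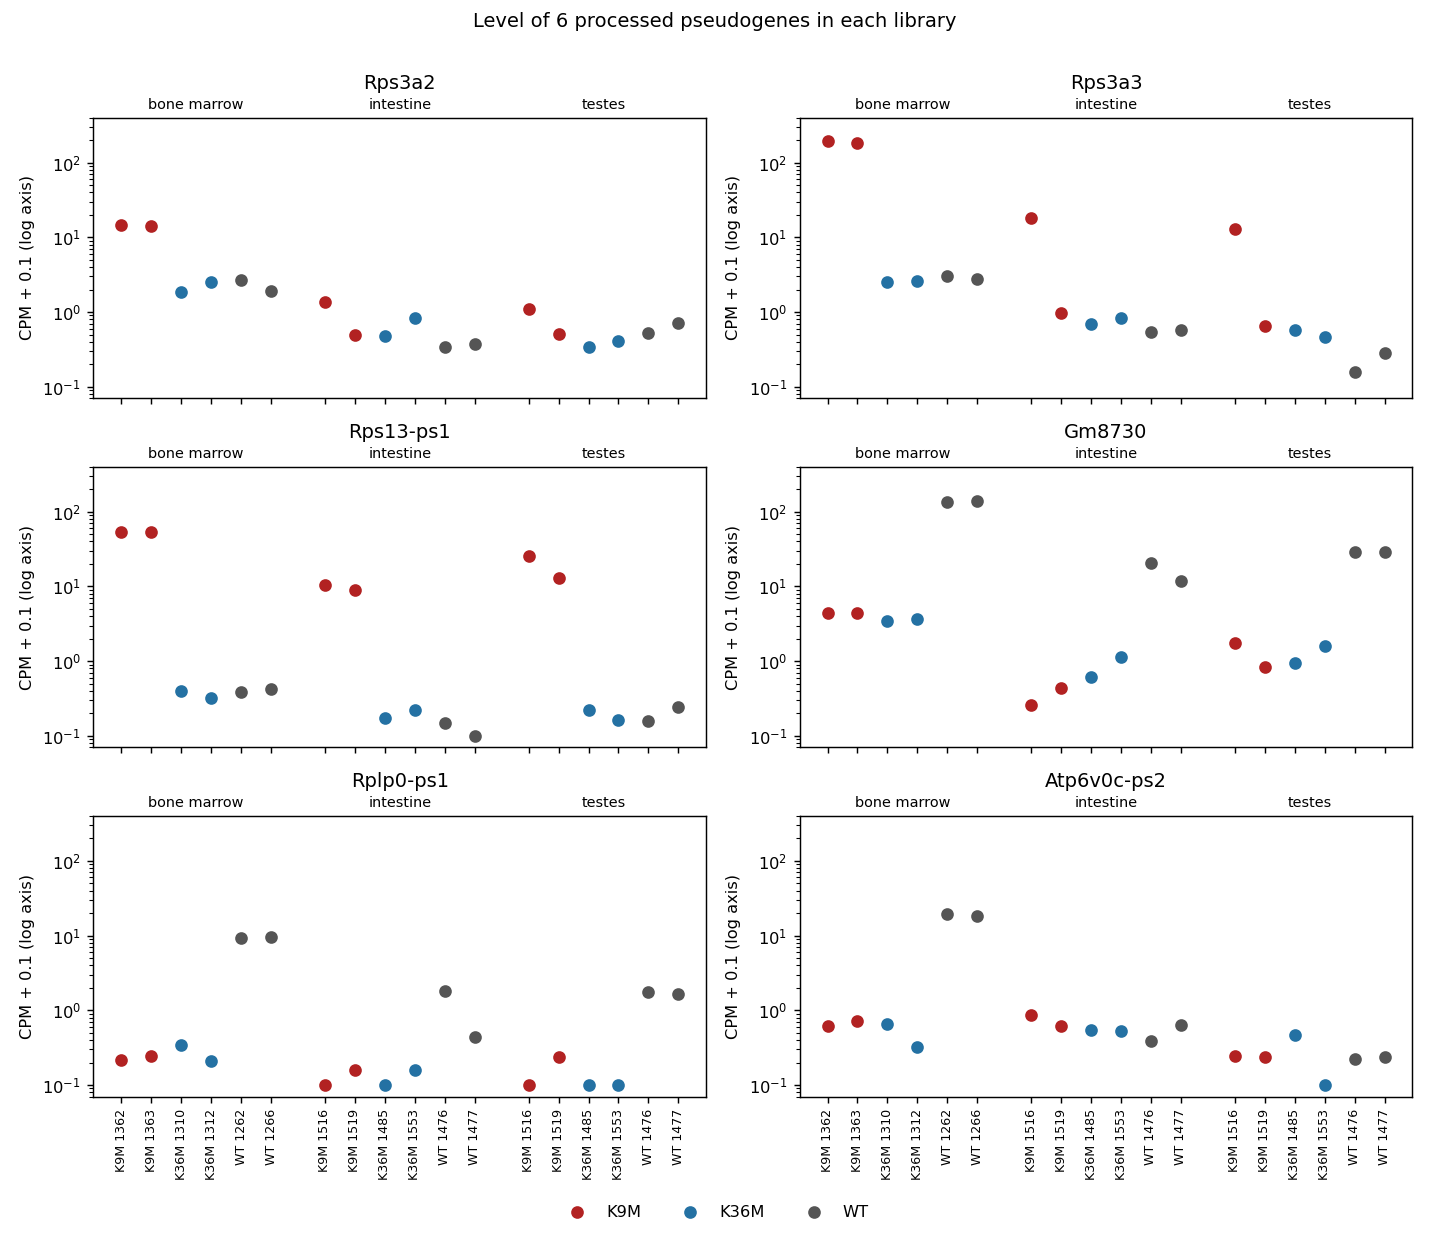
Level of each of 6 copies in every library, as TMM-scaled CPM plus 0.1 on a log axis, by tissue, with K9M (red), K36M (blue) and WT (grey) and 1 point per mouse. Rps3a3 is high in 4 K9M libraries, Rps13-ps1 in 6, Gm8730 in the 6 WT libraries and Atp6v0c-ps2 in 2 WT marrow libraries only.

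The share of Rps3a3 in the reads of Rps3a3 and Rps3a1 fell into 2 sets. It was 24.9% (95% exact interval 24.2 to 25.6) and 24.3% (23.6 to 24.9) in K9M marrow, 25.8% (23.4 to 28.2) in the intestine and 27.5% (24.7 to 30.5) in the testes of K9M mouse 1516. The other 14 libraries lay between 0.147% and 1.15%, with a median of 0.446%. The high share was thus much alike in 3 tissues. These intervals cover counting error only, and the libraries had no molecular identifiers that the labels name.

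**Figure D3:**
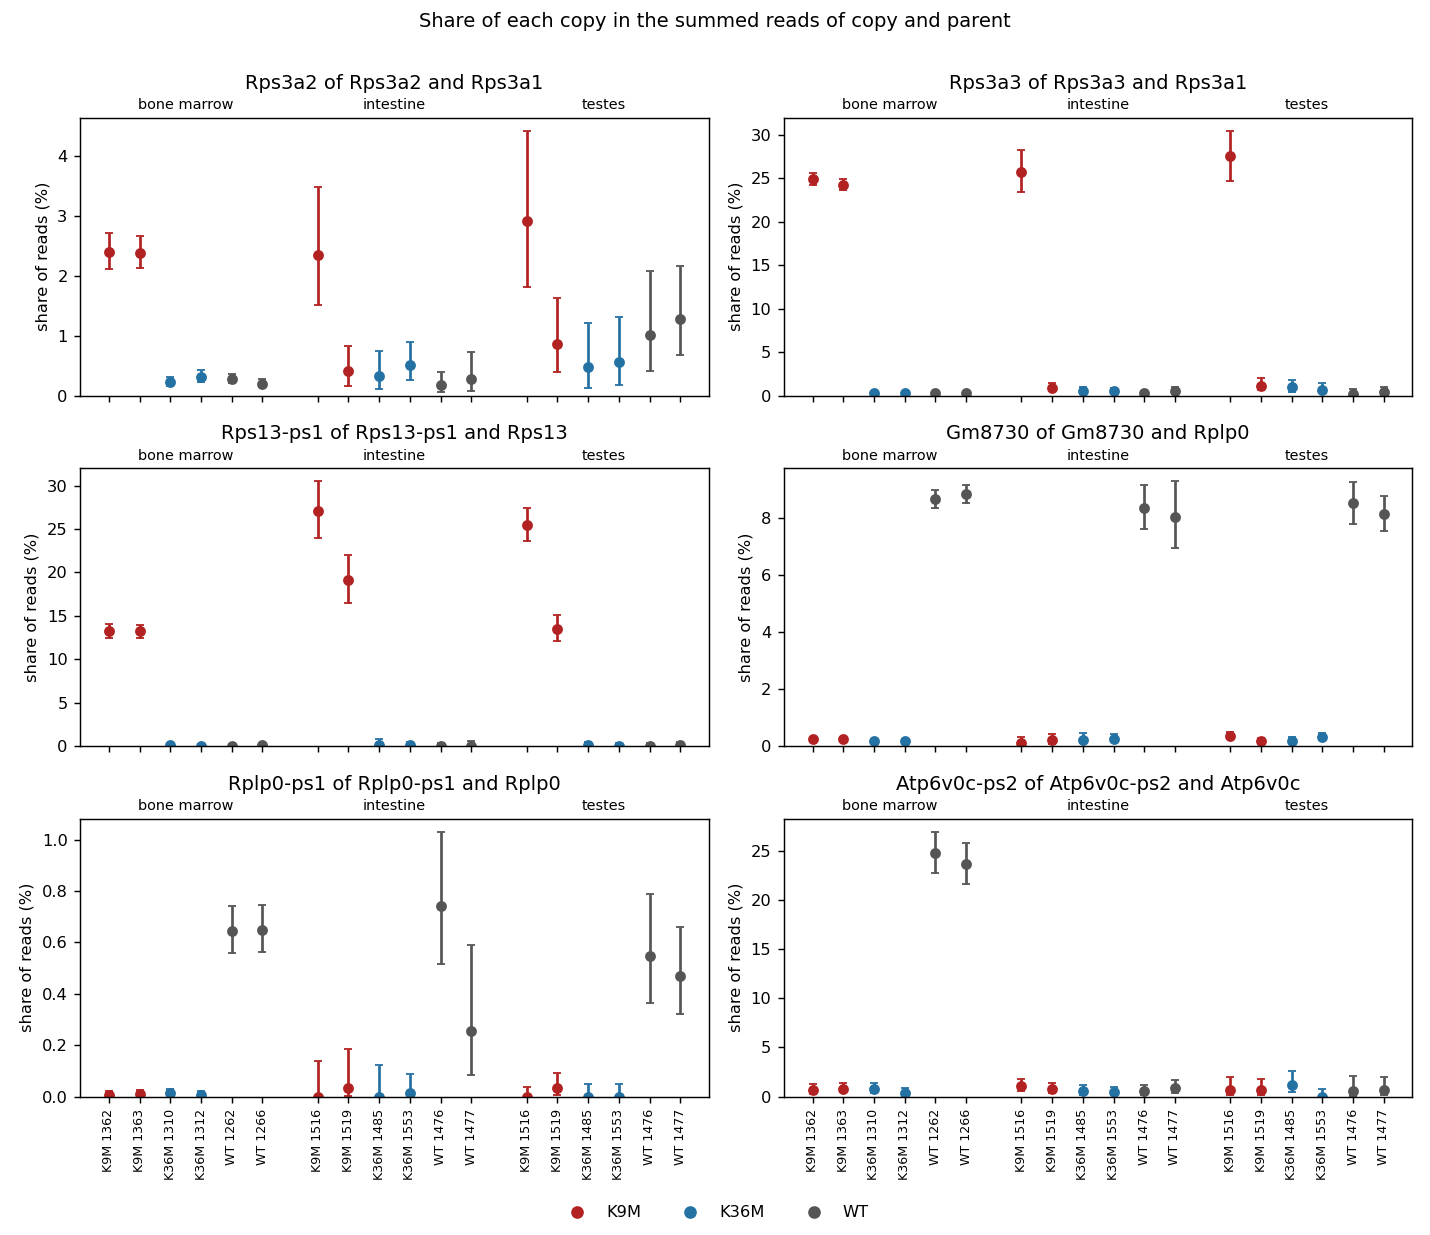
Share of each copy in the summed reads of copy and parent in every library, in percent on linear axes of differing height, with exact 95% binomial intervals, for K9M (red), K36M (blue) and WT (grey). High and low libraries are separate for all 6 copies except Rps3a2, whose intervals meet in testes, and Rplp0-ps1, whose intestine library of WT.1477 lies low at 0.254%.

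Rps3a2 followed Rps3a3 at a lower level. In marrow it had 14.6 and 14.2 CPM in the K9M mice, against 1.74 and 2.44 CPM in K36M and 2.58 and 1.84 CPM in WT. In intestine mouse 1516 had 1.24 CPM, K9M mouse 1519 had 0.400 CPM, K36M mice 0.373 and 0.728 CPM and WT mice 0.243 and 0.271 CPM. In testes mouse 1516 had 1.0 CPM, K9M mouse 1519 had 0.407 CPM, K36M mice 0.240 and 0.308 CPM and WT mice 0.420 and 0.610 CPM. The highest library of each tissue therefore belonged to the mice that were high in Rps3a3, though the testes value rests on 21 reads. The share of Rps3a2 in reads of Rps3a2 and Rps3a1 was 2.36% to 2.92% in these 4 libraries and 0.171% to 1.27% in the 14 others. The number of Rps3a3 reads per Rps3a2 read, 2 copies of almost equal length, was 12.6 to 14.4 in the 4 libraries and 0.143 to 2.14 in the rest. Rps3a2 and Rps3a3 share T216C and T534C, so reads over these bases may be counted for either, and the part of such reads in the Rps3a2 level was not tested.

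Rps3a1, the parent, was lower where Rps3a3 was high. Marrow had 592 and 578 CPM in K9M, 784 and 776 CPM in K36M and 940 and 912 CPM in WT. The 3 genotypes did not overlap, which was not tested and rests on 2 libraries each. The mean of K9M minus that of WT was -341 CPM for the parent, 200.2 CPM for the 2 copies together and -141 CPM for their sum. In intestine mouse 1516 had 51.5 CPM and mouse 1519 had 98.5 CPM, against 116 and 142 CPM in K36M and 141 and 95.4 CPM in WT. In testes mouse 1516 had 33.4 CPM and mouse 1519 had 46.9 CPM, against 50.3 and 54.0 CPM in K36M and 40.9 and 47.2 CPM in WT. Mouse 1516 was the lowest of the 6 mice in both tissues. In testes mouse 1516 minus mouse 1519 came to 12.7 CPM for the copies and -13.5 CPM for Rps3a1. Their sums, 47.1 CPM in mouse 1516 and 47.8 CPM in mouse 1519, were close. In intestine the sum stayed apart, at 70.6 CPM in mouse 1516 and 99.7 CPM in mouse 1519.

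Set against the other ribosomal protein genes, the sums lay nearer to each other than the parent alone. Per 1000 reads of those 77 genes, Rps3a1 had 10.5 in the intestine of mouse 1516 and 16.1 in that of mouse 1519, 14.3 and 12.8 in K36M and 15.0 and 15.9 in WT. Parent and copies together had 14.4 and 16.3 in the K9M mice, 14.4 and 12.9 in K36M and 15.1 and 16.1 in WT. In marrow Rps3a1 had 12.4 and 12.7 in K9M, 17.3 and 17.4 in K36M and 18.9 in each WT library. The sum was 16.9 and 17.1 in K9M, 17.4 and 17.6 in K36M and 19.0 in each WT library. Libraries with more reads of the copies thus had fewer of the parent, and whether parent reads were divided between the loci was not tested. No other setting of the scaling used here (DESeq2 size factors or library size alone) changed the sign of a difference of any of the 7 genes.

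**Figure D4:**
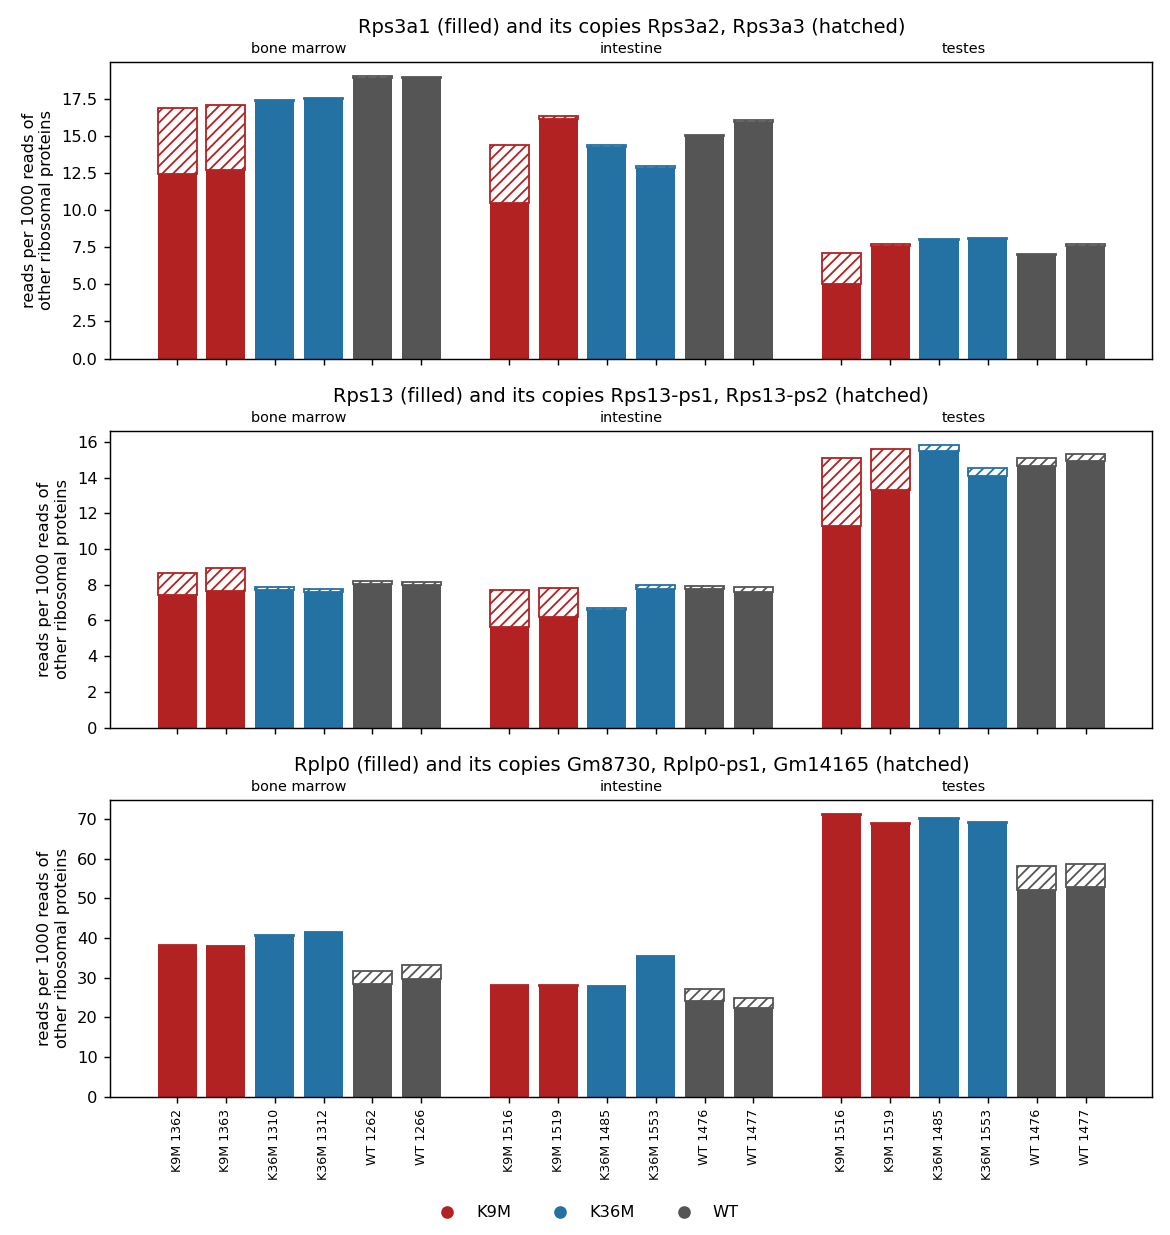
Reads of a parent gene (filled) and of its copies (hatched, stacked) per 1000 reads of 77 other ribosomal protein genes, by library, for K9M (red), K36M (blue) and WT (grey). The Rps3a1 bar is 10.5 in the intestine of K9M mouse 1516 and 14.4 with the copies, beside 16.3 in all for K9M mouse 1519.

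Rps13-ps1 was high in every K9M library, mouse 1519 included, and near 0 in all others. Marrow had 54.2 and 53.0 CPM in K9M, against 0.297 and 0.222 CPM in K36M and 0.281 and 0.322 CPM in WT. Intestine had 10.3 and 8.97 CPM in K9M mice 1516 and 1519, against 0.0747 and 0.121 CPM in K36M and 0.0485 and 0 CPM in WT. Testes had 25.4 and 12.9 CPM in the K9M mice 1516 and 1519, against 0.120 and 0.0616 CPM in K36M and 0.0600 and 0.141 CPM in WT. No K36M or WT library held more than 7 reads, and in every tissue the K9M libraries lay above all K36M and WT libraries. Among the K9M mice the share in reads of Rps13-ps1 and Rps13 came in unequal steps. It was 13.3% and 13.2% in marrow. In mouse 1516 it was 27.1% (exact 95% interval 23.9 to 30.5) in intestine and 25.5% (23.6 to 27.4) in testes. In mouse 1519 it was 19.1% (16.5 to 22.0) in intestine and 13.5% (12.1 to 15.1) in testes. Mouse 1516 thus had the higher share in both tissues, and the marrow mice lay near the testes of mouse 1519. All 12 other libraries had 0% to 0.151%.

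The parent Rps13 is not among the chosen genes and was tested. In marrow it had 354 and 348 CPM in K9M, 349 and 337 CPM in K36M and 401 and 385 CPM in WT. In edgeR's quasi-likelihood test, with p-values adjusted by Benjamini-Hochberg over all genes of the tissue, it was not called in K9M marrow (log2 fold change -0.16 ± 0.06 SE, adjusted p = 0.265), where 1.01% of all genes tested were called. It was called lower in K36M marrow (-0.20 ± 0.06, edgeR adjusted p = 0.0230), where 48% of all genes were called. That K36M call was lost without K36M mouse 1310, K36M mouse 1312 or WT.1262 (edgeR adjusted p = 0.0648, 0.164 and 0.109). In intestine and testes neither mutant gave a call for Rps13. Its log2 fold change in K9M intestine was -0.85 ± 0.33 (edgeR adjusted p = 0.447). Per 1000 reads of other ribosomal proteins, the testes had 11.3 and 13.3 reads of Rps13 in K9M mice 1516 and 1519, 15.5 and 14.1 in K36M and 14.6 and 15.0 in WT. With both copies the testes of mice 1516 and 1519 had 15.1 and 15.6, K36M 15.8 and 14.5 and WT 15.1 and 15.3. The K9M sums of testes thus lay within the range of the others. In marrow Rps13 alone had 7.43 and 7.65 in K9M, 7.71 and 7.58 in K36M and 8.06 and 7.98 in WT. There the sums with both copies were 8.67 and 8.91 in K9M, above 7.88 and 7.77 in K36M and 8.23 and 8.15 in WT.

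Another copy, Rps13-ps2 on chromosome 7, has no mismatch to Rps13 over 453 bases and no window of 50 bases of its own, so its reads cannot be told from those of Rps13 within them. In intestine it had 0 and 11 reads in K9M mice 1516 and 1519, 11 and 30 in K36M and 37 and 26 in WT. In testes it had 1 and 26 reads in K9M mice 1516 and 1519, 35 and 43 in K36M and 45 and 46 in WT. Mouse 1516 was the lowest in both tissues, the opposite end from its place in Rps13-ps1. A count of 0 among the 535 reads of Rps13-ps2 and Rps13 in that intestine allows a share of up to 0.561%, from 3 reads, and the exact two-sided interval reaches 0.687%. In marrow K9M mice had 82 and 92 reads, K36M mice 142 and 148 and WT mice 175 and 174. The gene passed no test in the 6 comparisons, with edgeR's quasi-likelihood log2 fold change at -0.83 ± 0.18 in K9M marrow (adjusted p = 0.0999).

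Gm8730, a copy of Rplp0, was high in all WT libraries and low in both mutants. Marrow had 4.26 CPM in each K9M mouse, 3.32 and 3.55 CPM in K36M and 134 and 138 CPM in WT. Intestine had 0.155 and 0.343 CPM in K9M, 0.523 and 1.03 CPM in K36M and 20.7 and 11.7 CPM in WT. Testes had 1.67 and 0.724 CPM in K9M, 0.840 and 1.48 CPM in K36M and 28.4 and 29.0 CPM in WT. The WT mean was 32.0 times that of K9M and 39.6 times that of K36M in marrow, and no mutant library reached a WT library in any tissue. The share of Gm8730 in reads of Gm8730 and Rplp0 was 0.113% to 0.356% in the 12 mutant libraries and 8.04% to 8.83% in the 6 WT libraries. It thus stayed within a narrow band across 3 tissues and 4 WT mice.

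Rplp0-ps1 showed the same division at a lower level. In marrow it had 0.115 and 0.143 CPM in K9M, 0.248 and 0.111 CPM in K36M and 9.15 and 9.33 CPM in WT. In testes it had 0 and 3 reads in K9M, 0 reads in both K36M libraries and 28 and 33 reads in WT. In intestine it had 0 and 1 reads in K9M, 0 and 1 in K36M and 35 and 5 in WT.1476 and WT.1477. The intestine value of WT.1476 comes from the library with germ cell markers, and the 5 reads of WT.1477 still lay above the mutants. The gene did not pass the filter on low counts in intestine.

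A further copy outside the choice, Gm14165 on chromosome 2, divided the libraries as these copies did. It differs from Rplp0 at 25 of 952 aligned bases. Marrow held 17 and 5 reads in K9M, 16 and 19 in K36M and 562 and 593 in WT. Intestine held 0 and 1 reads in K9M, 2 and 0 in K36M and 110 and 45 in WT, and testes 5 and 12 in K9M, 4 and 0 in K36M and 111 and 130 in WT. EdgeR's test found it lower: it fell in K9M marrow (log2 fold change -5.51 ± 0.43, adjusted p = 0.00294), K36M marrow (-4.86 ± 0.40, adjusted p = 0.000200) and K36M testes (-5.64 ± 0.63, adjusted p = 0.00256). It also fell in K36M intestine (edgeR adjusted p = 0.0123), where 23.3% of all genes were called, but not without WT.1476 (adjusted p = 0.0654). K36M testes called 49.5% of all genes. In K9M intestine and testes it did not pass (edgeR adjusted p = 0.0993 and 0.0807), although the mutant and WT reads did not overlap. Only 0.211% of genes were called in K9M intestine and 0.0678% in K9M testes. Without K36M mouse 1485 or 1553 it was called in both (adjusted p = 0.0242 and 0.0254 in intestine, 7.77e-08 and 5.15e-08 in testes). It was also called in both in a fit of K9M and WT alone (adjusted p = 0.0145 in intestine and 5.82e-07 in testes), by DESeq2 (0.00136 and 3.41e-09) and without the filter on low counts (1.44e-11 and 0.00136). It was called in neither without either K9M or either WT mouse, where adjusted p ran from 0.182 to 0.586 in intestine and 0.568 to 0.99999 in testes. Its likeness to Gm8730 was part of what led to it, so this is not independent of the choice of Gm8730. Gm8730 had 5.07 reads per Gm14165 read in both WT marrow libraries, 3.87 and 3.82 in WT intestine and 4.26 and 4.76 in WT testes.

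Rplp0 itself, a gene often used as a stable reference in PCR, was higher in the mutants of marrow. It had 1820 and 1725 CPM in K9M, 1838 and 1844 CPM in K36M and 1411 and 1429 CPM in WT. EdgeR called it higher in K9M marrow (log2 fold change 0.32 ± 0.05, adjusted p = 0.0230) and in K36M marrow (0.38 ± 0.05, adjusted p = 0.000574). The K36M call held under all 11 alternatives. The K9M call was lost when any library but that of WT.1262 was left out, with edgeR adjusted p-values of 0.0656 to 0.160. The difference of Rplp0 was larger than that of its copies: K9M marrow had 353 CPM more of Rplp0 and K36M marrow 422 CPM more than WT, while the difference of the 3 copies together was -167 CPM in each. In testes Rplp0 had 469 and 425 CPM in K9M, 442 and 465 CPM in K36M and 306 and 328 CPM in WT. EdgeR called K36M higher (0.52 ± 0.13, adjusted p = 0.0171) but not K9M (0.50 ± 0.13, unadjusted p = 0.00659, adjusted p = 0.9999). The K36M testes call was lost without WT.1476, WT.1477, K9M mouse 1516 or K9M mouse 1519 (edgeR adjusted p = 0.163, 0.106, 0.0531 and 0.0536). The K9M difference was called without K36M mouse 1485 or 1553 (adjusted p = 2.35e-05 and 1.89e-05). In intestine no call was made, with 138 and 171 CPM in K9M, 226 and 392 CPM in K36M and 227 and 133 CPM in WT.

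Atp6v0c-ps2 was high in the 2 WT marrow libraries and in no other. Marrow had 0.518 and 0.622 CPM in K9M, 0.545 and 0.222 CPM in K36M and 19.4 and 17.9 CPM in WT. In intestine it had 15 and 9 reads in K9M, 6 and 7 in K36M and 6 and 8 in WT. In testes it had 3 and 3 reads in K9M, 6 and 0 in K36M and 2 and 3 in WT. WT.1262 and WT.1266 thus had it and WT.1476 and WT.1477, sampled in other tissues, did not, so mouse and tissue cannot be told apart. The share in reads of copy and parent was 0.333% to 0.811% in the 4 mutant marrow libraries and 24.8% (exact 95% interval 22.7 to 26.9) and 23.6% (21.6 to 25.7) in the WT marrow libraries. In intestine and testes it did not exceed 1.21%.

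Its parent Atp6v0c was lower in WT marrow, where the copy was high. It had 76.2 and 76.0 CPM in K9M, 68.8 and 66.3 CPM in K36M and 58.8 and 58.0 CPM in WT. EdgeR called it higher in K9M (log2 fold change 0.38 ± 0.07, adjusted p = 0.0448) and in K36M (0.21 ± 0.07, adjusted p = 0.0315). Neither call held throughout: the K9M call was lost without any library but that of WT.1262 (edgeR adjusted p = 0.0933 to 0.380), and the K36M call without any of the 6 (0.0539 to 0.139). Parent and copy together came to a mean of 76.7 CPM in K9M, 67.9 CPM in K36M and 77.0 CPM in WT. The gap between K9M and WT was thus 17.7 CPM in the parent and -0.371 CPM in the sum. Atp6v0c was also higher in K36M intestine (0.55 ± 0.16, edgeR adjusted p = 0.0470) and K36M testes (0.50 ± 0.12, edgeR adjusted p = 0.0138), where the copy was low in all libraries. Those calls were lost without any of the 6 intestine libraries (0.0621 to 0.241) and without WT.1476 or WT.1477 of testes (0.121 and 0.104).

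As a measure of how sharply a gene split the libraries of a tissue, the largest gap between neighbouring values was taken on the log2(CPM + 1) scale. In marrow 6 of the 7 genes had a gap of at least 2, against 1.42% of all genes tested. In intestine 3 of 7 did, against 2.28%, and in testes 3 of 7, against 0.595%. These counts restate the choice of the genes. The gap of Rps3a3 was 5.58 in marrow and 3.34 and 3.15 in intestine and testes, that of Rps13-ps1 5.35, 3.15 and 3.61 and that of Gm8730 4.68, 2.64 and 3.46. The remaining copies had a gap of at least 2 in marrow only: Rps3a2 of 2.08, Rplp0-ps1 of 3.02 and Atp6v0c-ps2 of 3.55. Rplp0-ps1 also divided the testes at its low level, with WT.1476 and WT.1477 above a gap of 1.17. Rps3a1 did not split, with gaps of 0.39, 0.88 and 0.28.

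Intestine and testes come from the same animals and allow the side of each mouse to be compared. All 6 mice lay on the same side of the largest gap in both tissues for Rps3a3, Rps13-ps1 and Gm8730. They did so for Rps3a2 too, but its gaps of 0.38 and 0.32 there lay below the median gap of all genes, 0.43 in intestine and 0.39 in testes, so that its sides rest on no clear split. For Rplp0-ps1 5 mice did, the exception being WT.1477 in intestine, and for Atp6v0c-ps2, which has no clear gap there either, 4 did. Mice 1516 and 1519 share the K9M label, and of 13100 genes tested in both tissues, 15 were at least 4-fold apart between them in intestine and 6 in testes on the scale of CPM + 1. Of these, Rps3a3 alone was apart in the same direction in both tissues, by a log2 difference of 3.34 in intestine and 3.15 in testes. Rps3a3 was chosen for such gaps, so this restates the choice. Low counts move little on this scale: Rps13-ps2, with 0 and 11 reads in intestine and 1 and 26 in testes, was not among them. Trim12a, which was not chosen, was also lower in mouse 1516 than in mouse 1519 in both tissues. It had 7 and 539 reads in intestine and 0 and 24 in testes, where its low level kept it under the 4-fold cut. A split of these mice in both tissues was thus not particular to Rps3a3.

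**Figure D5:**
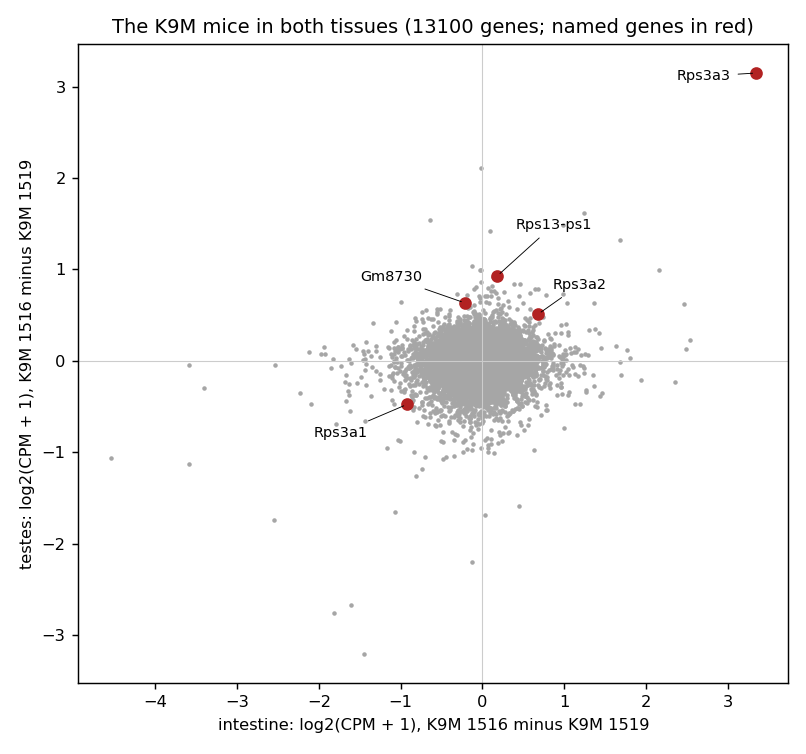
Difference in log2(CPM + 1) between K9M mouse 1516 and K9M mouse 1519 for 13100 genes, in intestine (horizontal) and testes (vertical), with 5 of the chosen genes in red. Rps3a3 lies alone at the upper right, at 3.34 and 3.15, and Rps3a1 lies below 0 in both tissues.

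The genes next to the chosen ones gave few calls in K9M, and in K36M calls about as often as all genes. The 3 nearest tested genes on each side gave 42 neighbours in each tissue. In K9M marrow, 1 was called higher and 2 lower of the 42, a larger share than the 1.01% of all genes tested. None were called by edgeR in K9M intestine or testes, against 0.211% and 0.0678% of all genes, and 7 and 2 had an unadjusted p under 0.05. DESeq2 also called none in K9M testes. In K9M intestine 2 were called without K36M mouse 1485, 2 without K36M mouse 1553, 3 by DESeq2 and 6 without the filter on low counts. The K9M marrow calls were Olfm4 beside Rps3a2 (log2 fold change 2.75 ± 0.41, edgeR adjusted p = 0.0440), Tchh beside Rplp0-ps1 (-2.02 ± 0.32, edgeR adjusted p = 0.0321) and Sh3d19 beside Rps3a1 (-1.0 ± 0.15, edgeR adjusted p = 0.0265). None of the 42 were called without K9M mouse 1362 or 1363, and 1 without WT.1266. In K36M, 6 rose and 15 fell in marrow, 8 rose and 4 fell in intestine and 11 rose and 13 fell in testes. Of all genes tested, 48% were called in K36M marrow, 23.3% in K36M intestine and 49.5% in K36M testes, so these counts are near the background. Only 3 of the 42 were called in K36M intestine without WT.1476 or WT.1477, and 1 in K36M testes without either. The K36M marrow calls ran from -2.06 for S100a9 beside Rplp0-ps1 to 1.39 for Olfm4 beside Rps3a2, and others among them were Gapt (-1.87), Creb3l2 (-1.25), Cmtm3 (-0.98), Mzt1 (0.56) and Heatr3 (0.66). The median log2 fold change of the neighbours in marrow was 0.0030 in K9M and 0.08 in K36M, against -0.0019 and -0.02 for all genes tested.

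Among the neighbours of a single copy, none matched its gap in marrow. Pde4d, a phosphodiesterase gene whose annotated span holds Rps3a3 on the same strand, had 34.8 and 31.1 CPM in K9M marrow, 20.3 and 28.7 CPM in K36M and 36.6 and 35.2 CPM in WT. It was called lower in K36M only (log2 fold change -0.55 ± 0.16, edgeR adjusted p = 0.0236), so its level did not follow the copy. The largest neighbour gap in marrow was 1.40, that of Gapt beside Rps3a3, and in testes 1.21, that of Depdc1b. In intestine 4 neighbours had a gap of at least 2, the largest being 3.12 for Diaph3 beside Rps3a2. Diaph3 was the higher in K9M intestine, by a log2 fold change of 4.30 ± 0.75, but did not pass (edgeR adjusted p = 0.127). Olfm4, also beside Rps3a2, was called higher in K9M marrow, the direction of Rps3a2 there. Olfm4 was called higher in K36M marrow too (1.39 ± 0.41, edgeR adjusted p = 0.0321). There Rps3a2 differed from WT by -0.056 on the log2(CPM + 1) scale, so Olfm4 did not follow the copy.

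Other genes shared the pattern of a copy across libraries. Likeness was measured as Pearson's r of log2(CPM + 1), centred within each tissue, over 18 libraries and 16691 genes, and is a description only, since the libraries of intestine and testes share mice and the genes were chosen for such patterns. Nearest to Gm8730 was an unnamed gene, ENSMUSG00000090723, at 0.99, followed by Gm14165 at 0.98 and the pseudogene Gm10819 at 0.89. ENSMUSG00000090723 had 257 and 262 reads in K9M marrow, 283 and 262 in K36M and 2399 and 2418 in WT. Nearest to Rplp0-ps1 was Gm14165 at 0.96. Nearest to Atp6v0c-ps2 were the sialyltransferase gene St6galnac1 at 0.97, Gm4737 at 0.96 and the pseudogene Npm3-ps1 at 0.95. Npm3-ps1 lies on chromosome 6, as Atp6v0c-ps2 does, and St6galnac1 and Gm4737 on chromosomes 11 and 16. Npm3-ps1 had 61 to 113 reads in the testes libraries, where Atp6v0c-ps2 had 0 to 6, so it did not follow the copy there. St6galnac1 had no read in the 4 mutant marrow libraries and 288 and 300 reads in WT marrow. Nearest to Rps3a2 and Rps3a3 was Chst3, a sulfotransferase gene of chondroitin, at 0.91 and 0.86. Ccnb1ip1, which acts in meiotic crossing over, followed at 0.90 and 0.84, with Il22ra2 at 0.89 for Rps3a2 and Kifc3 at 0.84 for Rps3a3. Chst3 and Il22ra2 lie on chromosome 10 and Kifc3 on chromosome 8. Ccnb1ip1 lies on chromosome 14, as Rps3a2 does, and the part of a shared chromosome in these patterns was not tested. In marrow Ccnb1ip1 had 156 and 185 reads in K9M, 0 and 2 in K36M and 0 in both WT libraries. In intestine it had 17 reads in K9M mouse 1516 and 0 in K9M mouse 1519, with 0 in both K36M libraries and 1 and 0 in WT. In testes it had 186 and 180 reads in K9M mice 1516 and 1519, 56 and 13 in K36M and 122 and 173 in WT, so it did not follow Rps3a3 there. For Rps13-ps1 the nearest genes were Lipo3 and the pseudogenes Rps15a-ps6 and Rps15a-ps7, at 0.82, 0.82 and 0.81. Between the chosen genes, r was 0.93 for Rps3a2 and Rps3a3, 0.88 for Rps13-ps1 and Rps3a3 and -0.75 for Rps3a1 and Rps3a3.

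Not every copy of these parents behaved this way. By sequence, 19 annotated transcripts had at least 90% identity to a parent over at least 80% of its coding sequence, of which 6 are the chosen copies and 13 have an ID in the files. Of the 7 others with an ID, 4 passed the low-count filter in marrow and 3 in intestine and testes, and Gm14165 was the 1 called. Gm13408, a copy of Rps3a1 with as many mismatches (9) as Rps3a3, had 24 reads in K9M, 14 in K36M and 19 in WT over both marrow libraries of each group. Rps13-ps4, with 3 mismatches to Rps13, had 41 reads in K9M marrow, 58 in K36M and 63 in WT, and was called in none of the 6 comparisons.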

How the data were processed

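The deposited files held raw read counts per gene, whole numbers. Per the submitters' processing notes the authors used STAR, HTSeq and the build mm9. The versions of these tools are not given in the sources used here. Per the labels' protocols, polyA RNA was made into libraries with the SMARTer v3 kit and sequenced on a HiSeq2500. Whether strand was used is not given, so overlapping and antisense genes cannot be told apart. Each file listed 37620 IDs and 5 entries that name no gene (no feature 9.89% to 26.0%, ambiguous 2.21% to 4.17%, not unique 15.3% to 29.1% of all entries), which stayed out of library sizes and tests. GENCODE M21 (GRCm38) named 32897 IDs and gave transcripts and gene order. No coordinates are printed because the builds differ.

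Each tissue was fitted alone in edgeR 4.0.16 under R 4.3.3, with TMM factors, filterByExpr, robust quasi-likelihood fits of 3 group means (3 residual degrees of freedom) and Benjamini-Hochberg adjustment over all genes at 0.05. The tests were tried on simulated counts. P-values rest on the spread between the 2 mice of a group, pooled over the 3 groups of a tissue and drawn towards that of other genes. The third group thus also enters the p-value of a comparison of 2 groups. Alternatives were DESeq2 1.42.0, its size factors, library size alone, no low-count filter, the 2 genotypes alone, each library left out and a pseudocount of 0.1 for 1. Copies were aligned to parents with BLAST 2.17.0 and Biopython 1.88. The 7 genes and all lists were chosen with earlier results of these data known. The named genes are these 7, the parents, neighbours called in the tissue in which the gene beside them has its largest gap, and the 3 genes of closest pattern to each of the 7 with a gap of at least 2 (mean of at least 1 CPM). The copies found by sequence, the sums against other ribosomal protein genes and the alternatives for Gm14165 and the neighbours were added after seeing the data. Gm13408, Rps13-ps2, Rps13-ps4, Trim12a, Ccnb1ip1 and Npm3-ps1 in testes and the largest neighbour gaps were picked out after their values were seen.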

Additional observations from a re-analysis of the deposited data

Results flagged for a closer look

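Some K36M differences from WT took opposite directions in different tissues, with every K36M library beyond every WT library. Each such difference between tissues was not tested. With 2 libraries per group such separation also arises by chance, and its share over all genes is not given here. On the log2(CPM + 1) scale, Rps3a1 differed by -0.25 in marrow and by 0.24 in testes. Rps3a2 differed by 0.29 in intestine and by -0.25 in testes, where K36M and WT held 4 to 13 reads per library. Rps3a3 differed by -0.13 in marrow, by 0.19 in intestine and by 0.34 in testes, all among libraries in which the copy is low. Rps13 differed by -0.20 in marrow and by 0.11 in testes. Marrow came from other mice than intestine and testes, so mouse and tissue cannot be told apart for the pairs with marrow.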

How the results depend on the processing

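The split of the libraries by the 6 copies did not turn on the scaling: under DESeq2 size factors or library size alone, 84 log2 differences of the 7 genes moved by at most 0.14 and none changed sign. A pseudocount of 0.1 widened the gaps, to 6.98 for Rps13-ps1 in marrow.

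The cause of the following changes was not tested unless the setting itself has fewer samples or other genes. Genes called in K9M against WT were 343 by DESeq2 and 463 without the low-count filter in marrow. In intestine they were 202 with the 2 genotypes alone, 352 by DESeq2 and 1180 without the filter, and in testes 213, 40 and 37. K36M intestine had 1890 with the 2 genotypes alone. Leaving out a library gave 28 to 619 calls in K9M marrow, 0 to 141 in K9M intestine, 0 to 247 in K9M testes, 4671 to 6861 in K36M marrow, 881 to 3775 in K36M intestine and 2310 to 12934 in K36M testes. The lone library of a group was then assumed to vary like the other groups.

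Log2 fold changes of parents that lost a call in marrow were 0.32 for Rplp0 and 0.38 for Atp6v0c in K9M with the 2 genotypes alone. For Atp6v0c in K36M marrow they were 0.21 with the 2 genotypes alone, 0.22 by DESeq2, 0.16 by library size and 0.20 without the filter. Calls were also lost for Atp6v0c in K36M intestine (0.55 with the 2 genotypes alone, 0.53 without the filter), Rplp0 in K36M testes (0.51 with the 2 genotypes alone) and Atp6v0c in K36M testes (0.35 by library size). Calls were gained without the filter for Rps13 in K9M intestine (-0.84) and Rplp0 in K36M intestine (0.76), and with the 2 genotypes alone for Rplp0 in K9M testes (0.48). Rps13 in K36M testes turned to -0.040 by library size alone.

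Leaving out a library moved Rplp0 between 0.28 and 0.36 in K9M marrow, 0.42 and 0.57 in K9M testes, 0.46 and 0.57 in K36M testes and -0.55 and 0.21 in K9M intestine, where its sign turned without WT.1476. Atp6v0c moved between 0.37 and 0.39 in K9M marrow, 0.18 and 0.25 in K36M marrow, 0.39 and 0.70 in K36M intestine and 0.43 and 0.51 in K36M testes. Rps13 moved between -0.23 and -0.15 in K36M marrow and between -0.17 and 0.61 in K36M intestine, turning to -0.17 without K36M mouse 1553 and to -0.07 without WT.1477.

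No paired analysis was possible because the groups compared within a tissue come from different mice and share no replicate number. Low reads limit Rps3a2, Rplp0-ps1 and Atp6v0c-ps2 in intestine and testes.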
